A study of Mus musculus with 4 samples.

Results

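The genes described here are the parts of the hypoxia-inducible factor (HIF) pathway that lie outside glycolysis. They were chosen by symbol from a written list and comprise 3 HIF subunits, 5 genes for oxygen sensors and the protein Vhl, and 27 genes known as HIF targets, 35 in all among the 55335 genes of the deposited count table. All 35 were found once and all 35 passed the filter on low counts. RNA-seq was done on AB2.2, a mouse ESC line grown on MEF feeder cells in medium with serum, leukemia inhibitory factor, CHIR99021 (an inhibitor of GSK3) and PD0325901 (an inhibitor of MEK). There were 2 control libraries and 2 libraries of cells supplemented with 50 mM lactate for 24 h. The sources used here do not say what the control cells received in place of lactate, and they give no reduced oxygen for either group. They also do not say whether the libraries of a group came from separate cultures, so p-values measure only the spread between these libraries. The smallest two-sided p that permuting 4 libraries allows is 0.333, and the p-values below are therefore those of a model fitted to the whole table.

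HIF is a pair of proteins, an alpha subunit (HIF-1alpha from Hif1a, or HIF-2alpha from Epas1) and the constant partner ARNT. In the presence of oxygen, the prolyl hydroxylases encoded by Egln1, Egln2 and Egln3 hydroxylate the alpha subunit, VHL then directs its ubiquitination and degradation, and the asparaginyl hydroxylase encoded by Hif1an blocks its binding to coactivators. When oxygen is scarce the alpha subunit accumulates and binds the short sequence known as the hypoxia response element near genes of glycolysis, angiogenesis, mitophagy, collagen modification and chromatin demethylation. This control acts mostly on the protein, which was not measured here, so the values below describe only RNA.

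Counts on genes ranged from 18067562 to 19077885 per library, and mitochondrial genes took 5.48% and 5.72% of them in replicate 1 of the control and lactate cells and 2.43% and 2.82% in replicate 2. Levels are given as CPM, which are counts scaled to the TMM-adjusted total of a library, and log2 fold changes as lactate over control with their standard error (SE). Markers of ESCs were abundant, and all 10 passed the filter with summed levels of 5669 and 6148 CPM in the control and 6206 and 6944 CPM in the lactate libraries. All 12 markers of feeder fibroblasts were also present, with summed levels of 442 and 631 CPM in the control and 438 and 496 CPM in the lactate libraries, and none of the 12 had 0 reads throughout. Of the 6 markers of primitive endoderm, 4 passed the filter, with summed levels of 12.7 and 10.9 CPM against 19.3 and 14.3 CPM. The part of these other cells in the results was not tested, and fewer cells of a type and less RNA per cell cannot be told apart.

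Most of the pathway lay lower in lactate-supplemented cells. The 35 genes were chosen with earlier results of these data known, so the counts below describe the list and are no independent test. Of the 35 genes, 27 had a negative and 8 a positive log2 fold change, with a median of -0.41, while the median of all 18661 genes tested was 0.01. At an unadjusted p-value under 0.05 (edgeR's quasi-likelihood test), 17 of the 35 genes were lower, where 11.4% of all genes tested were lower, and 4 were higher, where 11.7% of all genes were. For 24 of the 35 the groups did not overlap in CPM, as for 52.9% of all genes. Both lactate values lay under both control values for 20, against 25.9% of all genes, and over them for 4, against 27%. An adjusted p-value under 0.10 was reached by 12 genes, against 7.67% of all genes, with 10 lower (3.89% of all genes) and 2 higher (3.78%). The rule used for calling, more than 2-fold and adjusted p under 0.05, was met by 4 genes, against 0.9% of all genes. Adm, Bhlhe40 and Ndrg1 fell, where 0.348% of all genes tested were called lower, and Wsb1 rose, where 0.552% were called higher. The same 4 passed without the 2-fold requirement, under which 0.423% of all genes were lower and 0.568% higher. These calls depend on the libraries used, and without control replicate 1 all of them were lost. Wsb1 also lost its call without control replicate 2 or without lactate replicate 1, where its log2 fold change was 0.97. Leaving out 1 library leaves a group of 1, and the calls over all genes changed as well. Over all 15 alternatives the log2 fold change lay between -1.82 and -1.51 for Bhlhe40 and between -2.06 and -1.44 for Ndrg1. It lay between -2.56 and -1.17 for Adm and between 0.97 and 1.18 for Wsb1. With the RSEM expected counts in place of the raw counts, Bhlhe40 alone was called.

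**Figure D1:**
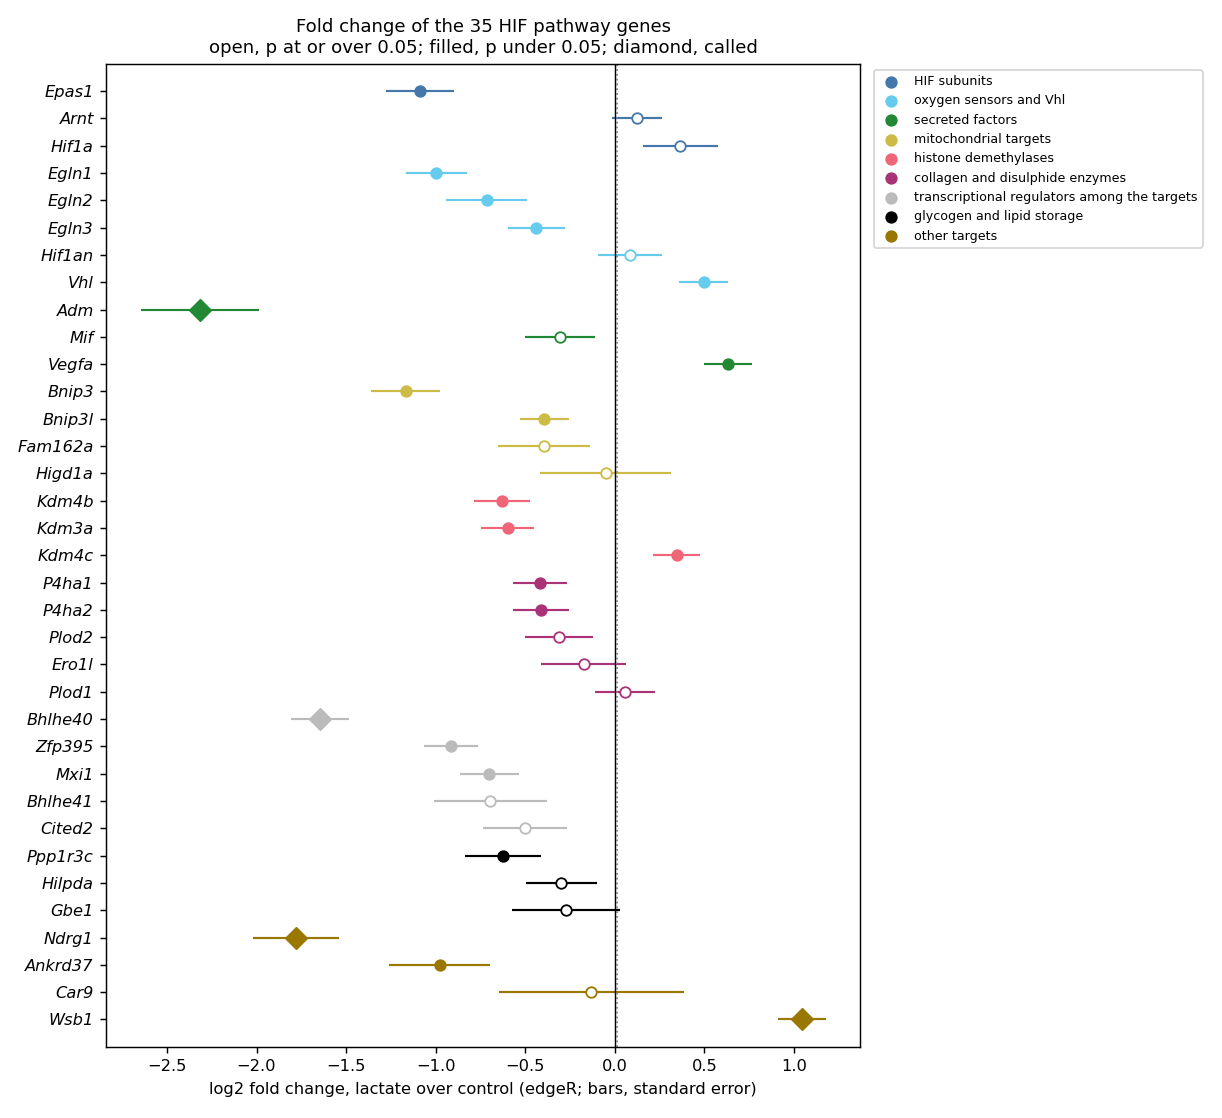
Log2 fold change of lactate over control for each of the 35 genes (x axis, edgeR estimate with its standard error as a bar), grouped by role and coloured by role. Open points have an unadjusted p-value of 0.05 or more, filled points a lower one, diamonds are the 4 called genes, and the dotted line is the median of all genes tested; 27 of the 35 points lie left of 0.

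The DNA before the start of some of these genes is shown because HIF binds the hypoxia response element, whose core is ACGTG or GCGTG. Only the 250 bases before a start were searched, so a window without the core does not show that a gene lacks the element. The sequences come from a table of RefSeq starts on GRCm38.p6, in which 28 of the 35 genes were matched, with 37 windows. Bhlhe40, Ndrg1, Epas1, Zfp395, Bnip3l, Kdm4b and Plod2 were not matched, so 2 of the 3 genes called lower have no window here. Each run is the 250 bases before a start, 5′ to 3′ on the strand of the gene, with capitals where the core occurs on either strand (read as CACGT or CACGC on the opposite one). Adm and Egln3 lay lower, as did Bnip3, and Vegfa and Wsb1 lay higher in lactate libraries. The windows are chr7:110627407-110627656 on the plus strand for Adm, chr7:138909507-138909756 on the minus strand for Bnip3, chr12:54203875-54204124 on the minus strand for Egln3, chr17:46032378-46032627 on the minus strand for Vegfa and chr11:79254696-79254945 on the minus strand for Wsb1.
Adm: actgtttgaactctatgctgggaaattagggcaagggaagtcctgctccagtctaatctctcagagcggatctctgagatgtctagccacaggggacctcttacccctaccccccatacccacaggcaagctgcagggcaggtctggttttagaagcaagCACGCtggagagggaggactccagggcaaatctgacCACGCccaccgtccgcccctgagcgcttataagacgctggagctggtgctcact
Bnip3: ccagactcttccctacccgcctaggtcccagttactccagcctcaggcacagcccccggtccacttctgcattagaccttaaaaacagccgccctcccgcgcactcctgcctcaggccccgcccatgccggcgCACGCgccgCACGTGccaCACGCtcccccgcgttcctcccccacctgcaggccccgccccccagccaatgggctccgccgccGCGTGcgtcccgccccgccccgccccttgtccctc
Egln3: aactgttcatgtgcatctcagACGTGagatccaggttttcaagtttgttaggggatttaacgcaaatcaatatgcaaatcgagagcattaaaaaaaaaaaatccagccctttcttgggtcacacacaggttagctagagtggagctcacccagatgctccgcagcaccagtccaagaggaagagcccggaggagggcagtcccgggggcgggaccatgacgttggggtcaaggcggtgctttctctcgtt
Vegfa: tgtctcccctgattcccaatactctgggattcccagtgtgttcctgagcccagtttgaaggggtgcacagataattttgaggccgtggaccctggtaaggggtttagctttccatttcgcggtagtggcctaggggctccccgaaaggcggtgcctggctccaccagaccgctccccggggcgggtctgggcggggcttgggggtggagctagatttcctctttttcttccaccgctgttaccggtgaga
Wsb1: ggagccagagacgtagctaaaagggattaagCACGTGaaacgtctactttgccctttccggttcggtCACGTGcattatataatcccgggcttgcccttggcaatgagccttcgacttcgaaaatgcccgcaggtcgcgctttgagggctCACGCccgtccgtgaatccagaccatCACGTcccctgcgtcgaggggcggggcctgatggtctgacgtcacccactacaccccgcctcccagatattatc
The Adm window held the core at 2 places, starting 90 and 54 bases before the start. The Bnip3 window held it at 117, 99 and 35 bases before the start and also held CACGTG 108 bases before it, a palindrome in which the core is read on both strands and which is also the binding site of proteins such as the one encoded by Bhlhe40. The Egln3 window held it once, at 229 bases. The Wsb1 window held CACGTG at 219 and 183 bases and the core at 100 and 74 bases, while none was found in this Vegfa window. At a second RefSeq start inside the gene, Vegfa had it at 218 and 211 bases and Wsb1 had none. Distances are from the RefSeq starts, which for the printed windows lie upstream of the gene start in GENCODE M21 by 4 bases for Adm, 14 for Egln3, 8 for Vegfa and 24 for Wsb1, and inside the gene for Bnip3. The first bases after the RefSeq start were found in an M21 transcript of the gene for 27 of the 37 windows, among those printed for Bnip3 alone.

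Over the whole set, 24 of the 28 genes with a window (85.7%) had ACGTG or GCGTG in at least 1 window on either strand. This compares with 59% of the 12065 tested genes with a window and 41.5% of all 27025 genes in the RefSeq table. Among the comparison lists described below, the share was 89.5% of 19 glycolytic HIF targets and 69.2% of 26 other HIF targets. It was 63.6% of 22 paralogs and 45.5% of 11 other HIF pathway factors. ACGTG alone occurred in 67.9% of the 28 genes and in 24.2% of the tested genes, and GCGTG in 67.9% and 47.8%. CACGTG, which is counted within ACGTG as well, occurred in 25% and 9.55%. The genes were listed as HIF targets and regulators with earlier results of these data known, so these shares describe the list. All 11 genes with a window that lay lower at an unadjusted p-value under 0.05 held ACGTG or GCGTG, and so did 3 of the 4 that lay higher and 10 of the 13 others, while 6 further lower genes had no window in the table. The mean share of G and C in their windows was 63.6% for the 11 lower genes, 62.1% for the 13 others, 53.3% for the 4 higher ones and 59.3% over the tested genes. No test was made of these shares.

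Among the 3 HIF subunits of the set, Epas1 stood apart from Hif1a and Arnt. Hif3a, which is outside the set and is given below with other pathway factors, also lay lower in CPM, with a log2 fold change of -0.97. Hif1a, on chromosome 12 from 73901375 to 73947530 of GRCm38, had 174 and 134 CPM in the control and 230 and 168 CPM in the lactate libraries. The groups overlapped, since the second lactate library lay below the first control library, and the log2 fold change was 0.37 ± 0.21 (SE; edgeR adjusted p = 0.348). Annotated exons of Gm15283 on the opposite strand and Gm49321 on the same strand overlap those of Hif1a, so some of its reads could belong to these. Arnt had 174 and 159 CPM in the control and 193 and 170 CPM in the lactate libraries, a log2 fold change of 0.12 ± 0.14 (SE), and its groups overlapped too. Epas1, on chromosome 17 from 86753700 to 86833410, had 11.3 and 13.3 CPM in the control and 5.92 and 5.63 CPM in the lactate libraries. Both lactate libraries held less than the lower control library, and the log2 fold change was -1.09 ± 0.19 (SE; edgeR adjusted p = 0.0553), just above the threshold. DESeq2 called Epas1, with an adjusted p-value of 0.00852. On the TPM scale, which allows genes to be compared per length, Hif1a was between 16.1 and 24.1 times as abundant as Epas1 in the control libraries and between 49.4 and 59.0 times in the lactate libraries.

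All 3 prolyl hydroxylase genes were lower in lactate-supplemented cells. Egln1, on chromosome 8 from 124908587 to 124949324, encodes the main HIF prolyl hydroxylase and is itself a HIF target. It had 66.3 and 51.0 CPM in the control and 28.5 and 30.3 CPM in the lactate libraries, a log2 fold change of -0.996 ± 0.17 (SE; edgeR adjusted p = 0.0540). DESeq2 gave it an adjusted p-value of 0.00114 and called it. Egln2 had 42.0 and 53.5 CPM in the control and 23.7 and 34.5 CPM in the lactate libraries, with a log2 fold change of -0.71 ± 0.22 (SE). Its exons overlap those of Cyp2t4 on the opposite strand. Egln3, which hypoxia induces in many cell types, had 32.3 and 27.5 CPM in the control and 21.7 and 22.4 CPM in the lactate libraries, a log2 fold change of -0.44 ± 0.16 (SE). The groups did not overlap for any of the 3 genes, and each had an unadjusted p-value under 0.05, but edgeR called none of them. Summed over the 3 genes, the level was 76.8 and 79.8 TPM in the control and 46.5 and 53.4 TPM in the lactate libraries.

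The other 2 regulators did not share this direction. Vhl, the substrate receptor of the ubiquitin ligase that removes hydroxylated HIF, had 30.9 and 31.8 CPM in the control and 42.4 and 46.1 CPM in the lactate libraries. Its groups were separate, with a log2 fold change of 0.50 ± 0.14 (SE; edgeR adjusted p = 0.111). Hif1an, which encodes the asparaginyl hydroxylase, had 57.0 and 70.5 CPM in the control and 59.4 and 75.6 CPM in the lactate libraries. Its groups overlapped, and the log2 fold change of 0.08 was smaller than its standard error of 0.18 and changed sign when control replicate 1 or lactate replicate 2 was left out.

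**Figure D2:**
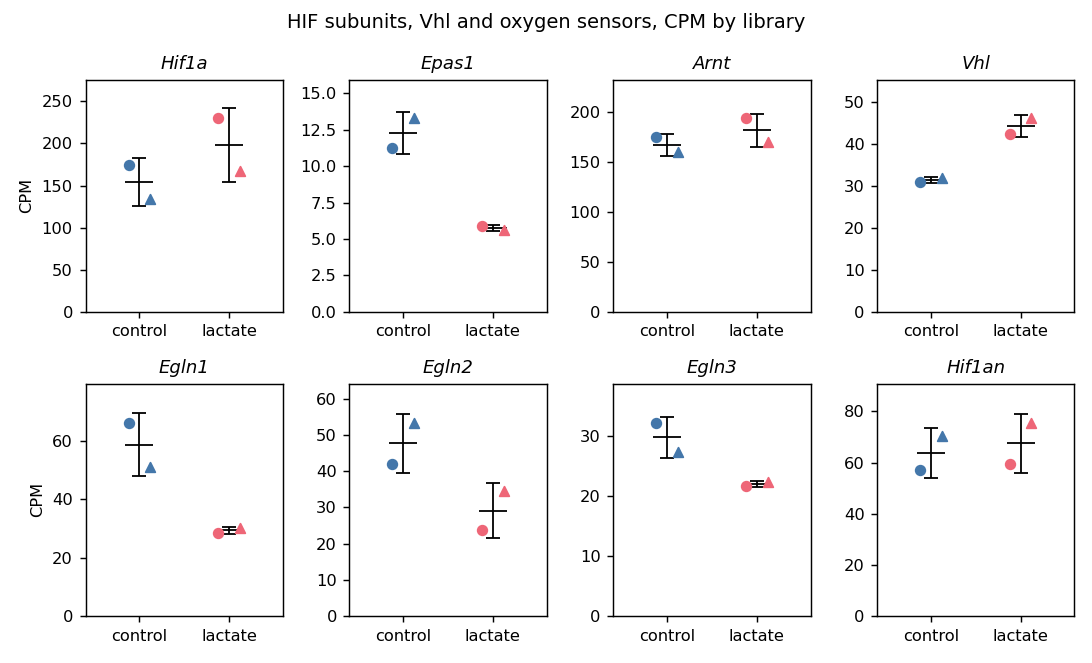
CPM (y axis, from 0) of the HIF subunits, Vhl and the oxygen sensors in each library, with circles for replicate 1, triangles for replicate 2, blue for control and red for lactate; the horizontal bar is the mean of 2 libraries and the error bar the SD. Epas1, Egln1, Egln2 and Egln3 lie lower and Vhl higher in both lactate libraries, while Hif1a, Arnt and Hif1an overlap.

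The genes for secreted factors went in different directions. Adm, on chromosome 7 from 110627661 to 110629820, encodes adrenomedullin, a vasodilator peptide. Its reads numbered 67 and 51 in control and 11 and 14 in lactate libraries, which is 3.28 ± 0.839 CPM against 0.651 ± 0.0834 CPM (SD, n = 2). Adm thus fell to a low level in both lactate libraries, with a log2 fold change of -2.32 ± 0.33 (SE; edgeR adjusted p = 0.0467). Vegfa, on chromosome 17 from 46016993 to 46032369, encodes the main angiogenic growth factor and lay in the opposite direction, with 98.4 and 86.1 CPM in the control and 143 and 142 CPM in the lactate libraries. Its log2 fold change was 0.63 ± 0.13 (SE; edgeR adjusted p = 0.0695), and it stayed between 0.54 and 0.72 in every alternative tried. Mif, a cytokine, had 276 and 394 CPM in the control and 269 and 273 CPM in the lactate libraries, a log2 fold change of -0.31 ± 0.19 (SE). The lactate libraries lay only slightly below the first control library, and 2 annotated pseudogenes carry its name, so part of its reads may have been shared with copies.

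Adm2, encoding intermedin, a peptide related to adrenomedullin, is no member of the set but rose where Adm fell. Its reads numbered 33 and 24 in control and 167 and 142 in lactate libraries, which is 1.59 ± 0.455 CPM against 8.09 ± 1.26 CPM (SD, n = 2). The groups were far apart, and the log2 fold change was 2.35 ± 0.28 (SE; edgeR adjusted p = 0.0406).

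The 5 transcriptional regulators among the targets all had negative log2 fold changes. Bhlhe40, on chromosome 6 from 108660629 to 108666925, encodes a basic helix-loop-helix repressor that also takes part in the circadian clock. It had 116 and 102 CPM in the control and 38.4 and 31.2 CPM in the lactate libraries. Bhlhe40 fell with a log2 fold change of -1.65 ± 0.16 (SE; edgeR adjusted p = 0.0320), the smallest adjusted p among the 35 genes, and annotated exons of 0610040F04Rik lie on the opposite strand. Its paralog Bhlhe41 had only 1.84 to 2.83 CPM in the control and 1.32 to 1.56 CPM in the lactate libraries, with no overlap and a log2 fold change of -0.69 ± 0.32 (SE). Zfp395 had 42.9 and 41.1 CPM in the control and 20.7 and 23.9 CPM in the lactate libraries, a log2 fold change of -0.92 ± 0.15 (SE; edgeR adjusted p = 0.0520). Mxi1, which encodes a partner of MAX that represses targets of MYC, had 36.5 and 30.7 CPM in the control and 21.9 and 19.5 CPM in the lactate libraries, a log2 fold change of -0.70 ± 0.17 (SE; edgeR adjusted p = 0.0839). Neither Zfp395 nor Mxi1 had overlapping groups, while exons of Gm10197 and Gm43909 lie opposite those of Mxi1 and Bhlhe41. Cited2, whose product competes with HIF for the coactivators p300 and CBP, had 77.1 and 52.8 CPM in the control and 52.8 and 38.9 CPM in the lactate libraries. The higher lactate value nearly equalled the lower control value, at a log2 fold change of -0.50 ± 0.23 (SE).

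Of the 4 genes with mitochondrial products, both mitophagy receptors were lower. Bnip3, on chromosome 7 from 138890836 to 138909519, had 59.8 and 43.4 CPM in the control and 23.7 and 22.3 CPM in the lactate libraries. Its log2 fold change was -1.17 ± 0.19 (SE; edgeR adjusted p = 0.0520), and DESeq2 called it with an adjusted p-value of 0.000164. Bnip3l, the related receptor that removes mitochondria from maturing red cells, had 106 and 101 CPM in the control and 84.0 and 73.0 CPM in the lactate libraries, a smaller difference with a log2 fold change of -0.39 ± 0.14 (SE). For both genes all lactate values lay under the control values in CPM. In TPM the groups of Bnip3l overlapped, with 97.5 and 76.5 TPM in the control and 88.9 and 57.3 TPM in the lactate libraries. An antisense transcript, Gm45507, overlaps exons of Bnip3. Fam162a, which encodes a mitochondrial protein, had 32.4 and 37.6 CPM in the control and 19.9 and 33.4 CPM in the lactate libraries, and Higd1a, a protein of the respiratory chain, had 16.9 and 21.7 CPM in the control and 11.6 and 25.6 CPM in the lactate libraries. Their groups overlapped, and for Higd1a the ratio of lactate to control was -0.54 on the log2 scale between the libraries numbered 1 and 0.24 between those numbered 2, which also differ in their share of mitochondrial reads.

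The histone demethylase genes, whose products use oxygen as the HIF hydroxylases do, were split. Kdm3a, a demethylase of H3K9, had 291 and 261 CPM in the control and 195 and 170 CPM in the lactate libraries, a log2 fold change of -0.60 ± 0.15 (SE; edgeR adjusted p = 0.0897). Kdm4b, which removes trimethylation of H3K9, had 50.7 and 59.8 CPM in the control and 33.0 and 38.4 CPM in the lactate libraries, a log2 fold change of -0.63 ± 0.16 (SE; edgeR adjusted p = 0.0940). Its paralog Kdm4c lay the other way, with 91.4 and 83.9 CPM in the control and 116 and 106 CPM in the lactate libraries and a log2 fold change of 0.34 ± 0.13 (SE). The groups did not overlap for any of the 3 genes, and none was called.

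Genes for collagen modification and disulphide formation differed less. P4ha1 and P4ha2 encode the catalytic subunits of collagen prolyl 4-hydroxylase. P4ha1 had 76.4 and 62.7 CPM in the control and 53.0 and 51.1 CPM in the lactate libraries, and P4ha2 had 26.9 and 26.2 CPM against 18.6 and 21.4 CPM. Their log2 fold changes were -0.42 ± 0.15 (SE) and -0.41 ± 0.16 (SE), without overlap between the groups. The lysyl hydroxylase genes Plod1 and Plod2 and the disulphide oxidase gene Ero1l had log2 fold changes of 0.06, -0.31 and -0.17, each with overlapping groups and an unadjusted p-value above 0.05. Of the 12 feeder markers 6 had positive and 6 negative log2 fold changes, with a median of 0.03 and values from -0.90 for Col3a1 to 0.63 for Twist2, and the part of feeder RNA in the levels of P4ha1 and P4ha2 was not tested.

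Genes for glycogen and lipid storage had low levels in CPM. On the TPM scale the control means were 5.025 for Ppp1r3c, 15.4 for Hilpda and 2.56 for Gbe1. Ppp1r3c, a glycogen-targeting subunit of protein phosphatase 1, had 9.02 and 8.01 CPM in the control and 6.13 and 4.92 CPM in the lactate libraries, a log2 fold change of -0.62 ± 0.21 (SE). Hilpda, an inhibitor of lipolysis at the lipid droplet, had 6.82 and 7.59 CPM in the control and 5.43 and 6.29 CPM in the lactate libraries, a log2 fold change of -0.30 ± 0.20 (SE). The groups did not overlap for these genes in CPM. In TPM those of Hilpda overlapped, with 14.15 and 16.68 TPM in the control and 12.77 and 14.47 TPM in the lactate libraries. Gbe1, the glycogen branching enzyme, had between 4.06 and 5.26 CPM in the control and between 2.94 and 4.79 CPM in the lactate libraries, with overlap.

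Ndrg1 and Wsb1, both called, went in opposite directions. Ndrg1, on chromosome 15 from 66929318 to 66969640, a gene induced by stress and differentiation, had 39.6 and 25.7 CPM in the control and 9.58 and 9.43 CPM in the lactate libraries. The control libraries differed from each other, but both lay well above the lactate libraries, and Ndrg1 fell with a log2 fold change of -1.78 ± 0.24 (SE; edgeR adjusted p = 0.0450). Exons of Gm17035 and Gm2895 lie on the opposite strand. Wsb1, on chromosome 11 from 79239372 to 79254671, encodes a SOCS-box protein of a ubiquitin ligase and was the only called gene that rose. It had 176 and 177 CPM in the control and 378 and 352 CPM in the lactate libraries, a log2 fold change of 1.05 ± 0.13 (SE; edgeR adjusted p = 0.0406). Ankrd37 had 3.35 and 2.42 CPM in the control and 1.40 and 1.52 CPM in the lactate libraries, with no overlap and a log2 fold change of -0.98 ± 0.28 (SE). That value was -0.63 in the RSEM expected counts, and its exons overlap those of Lrp2bp and Ufsp2. Car9, the membrane carbonic anhydrase often used as a hypoxia marker, had 6 and 18 control reads and 11 and 12 lactate reads. Both lactate values lay between the control values in reads and in CPM, and the log2 fold change was -0.13 ± 0.52 (SE). In TPM they did not, with 0.13 and 0.34 TPM in the control and 0.15 and 1.34 TPM in the lactate libraries.

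**Figure D3:**
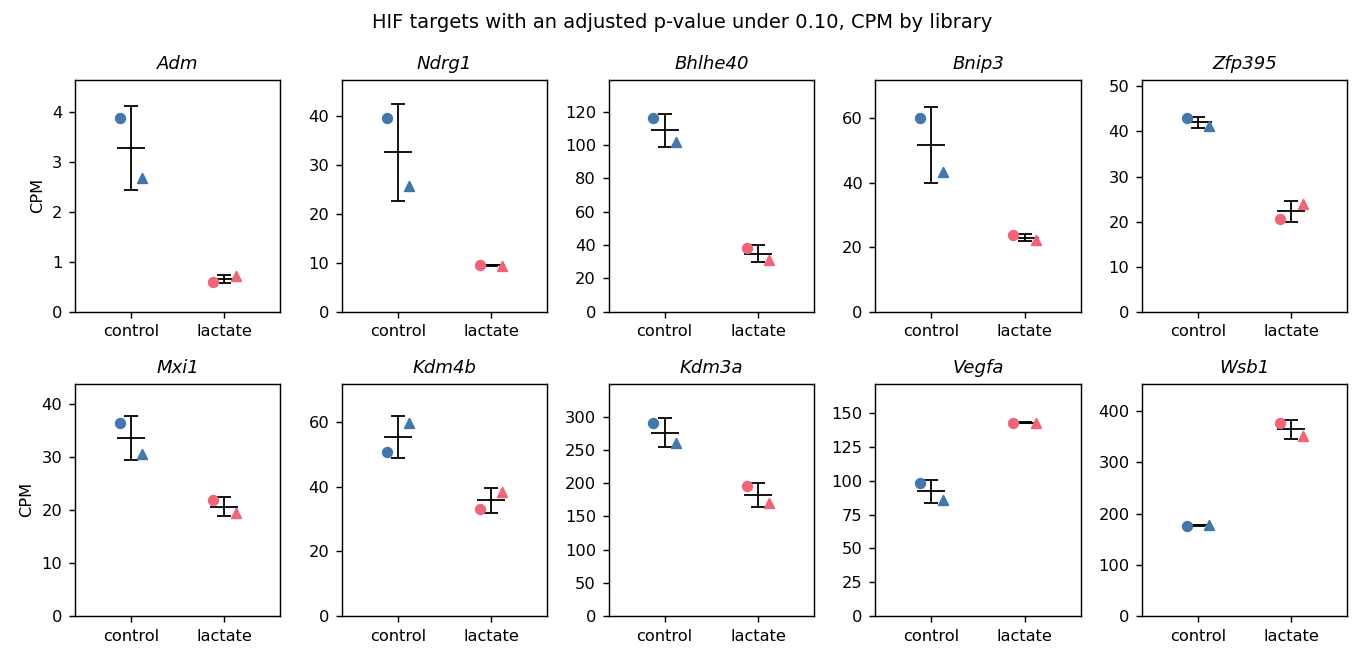
CPM (y axis, from 0) in each library for the 10 HIF targets with an adjusted p-value under 0.10, with circles for replicate 1, triangles for replicate 2, blue for control, red for lactate, the mean of 2 libraries as a horizontal bar and the SD as an error bar. The groups are separate for every gene drawn, which largely follows from the choice of genes by p-value. Vegfa and Wsb1 lie higher with lactate and the other 8 lower.

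Levels varied widely within the pathway. On the TPM scale, control means ran from 0.235 for Car9 to 1891 for Mif, and 28 of the 35 genes were above 10 TPM. In the control libraries Arnt (67.9 ± 0.566 TPM, SD, n = 2) and Hif1a (59.7 ± 8.65 TPM) were the most abundant of the 8 subunit and sensor genes and differed by less than the SD of Hif1a. They were followed by Egln2 at 35.4 ± 7.73 TPM and Egln1 at 24.7 ± 3.92 TPM, and then by Egln3, Vhl and Hif1an, whose means of 18.3, 17.8 and 14.6 TPM had SDs between 0.396 and 1.83. Epas1 was last at 3.03 ± 0.424 TPM. In the lactate libraries the order began with Hif1a at 82.0 ± 16.7 TPM and Arnt at 77.5 ± 5.76 TPM, whose libraries overlapped. Vhl stood next at 26.5 ± 1.15 TPM, above Egln2 at 22.4 ± 4.36 TPM by less than the SD of Egln2, and Egln1 at 13.1 ± 0.488 TPM was lower than every other gene of this group but Epas1, which had 1.59 and 1.42 TPM.

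The rest of the pathway was followed with lists of other genes, also chosen with earlier results of these data known. The 18 other HIF pathway factors included Hif3a, Arnt2, the subunits of the VHL ligase and the coactivators Crebbp and Ep300. At an unadjusted p-value under 0.05 in edgeR, 2 of the 18 were lower and 0 higher. None was called by edgeR, and the median log2 fold change was -0.004. The 2 lower ones were Hif3a with -0.97 and Hsp90ab1 with -0.50. Hif3a had 16.1 and 10.4 CPM in the control and 7.75 and 5.78 CPM in the lactate libraries. In TPM its groups overlapped, with 3.2 and 2.3 TPM in the control and 4.61 and 1.22 TPM in the lactate libraries. Of 38 other HIF targets outside glycolysis, 36 passed the filter, 5 were lower and 4 higher at that p-value and 0 were called, with a median of -0.11. The 5 lower ones were Ccng2, a cyclin-related gene, with a log2 fold change of -1.24, Pnrc1 with -0.80, Jmjd6 with -0.60, Tfrc, the transferrin receptor, with -0.55 and Loxl2, a lysyl oxidase, with -0.54. The 4 higher ones were Edn1, which encodes endothelin 1, with 1.02, Trf, transferrin, with 0.75, Insig2 with 0.53 and Pim1, a kinase, with 0.42. At the unadjusted p-value the counts of lower genes, 5 of 36 and 2 of 18, lie near the 11.4% of all genes tested. At an adjusted p-value under 0.10, however, 5 of the 36 other targets were lower and 0 higher in edgeR, against 3.89% and 3.78% of all genes, and 0 of the 18 factors passed.

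Glycolytic HIF targets, listed for comparison, were mostly lower, with 13 of 20 lower and 0 higher at an unadjusted p-value under 0.05 in edgeR, a median log2 fold change of -0.61 and 0 called. Those with an unadjusted p-value under 0.01 were Slc2a1, Hk2, Gpi1, Pfkl, Aldoa, Aldoc, Tpi1, Pgam1, Eno1, Pkm, Ldha and Slc16a3, with log2 fold changes from -1.31 for Slc16a3, the lactate exporter, to -0.55 for Gpi1. Of 25 paralogs of the pathway genes, 23 passed the filter, 6 were lower and 2 higher at an unadjusted p-value under 0.05, and the median was -0.26. Besides Adm2, the paralogs with an unadjusted p-value under 0.01 were Cited4 with a log2 fold change of -1.02 and Ndrg2 with -0.74. Feeder fibroblast markers had a median of 0.03, with 1 higher and 2 lower of 12, and ESC markers a median of 0.22, with 4 higher and 1 lower of 10. Pdgfrb, of the feeder list, had 0.56, Col3a1 had -0.90, and Sox2, of the ESC list, had 0.56, each at an unadjusted p-value under 0.01. The 4 tested primitive endoderm markers were all higher in direction, 1 of them at an unadjusted p-value under 0.05, with a median of 0.56.

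**Figure D4:**
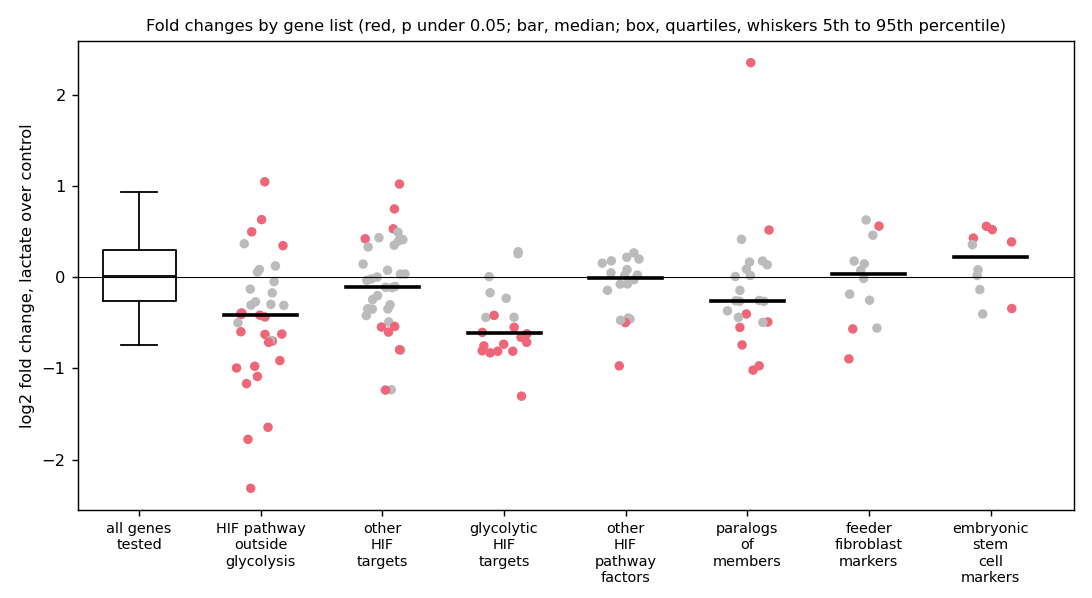
Log2 fold change of lactate over control (y axis) of each tested gene in the HIF pathway outside glycolysis and in the comparison lists other than primitive endoderm, with red for an unadjusted p-value under 0.05, grey for the others and a bar at the median. The box at the left shows the quartiles of all 18661 genes tested with whiskers at the 5th and 95th percentiles; the medians are -0.41 for the 35 genes, -0.61 for the glycolytic targets and -0.11 for the other targets.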

How the data were processed

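Libraries were made by the authors from total RNA with the Illumina TruSeq kit. Per the labels and the methods, reads were trimmed with cutadapt 1.16 and mapped to mm10 (GENCODE M23) with STAR. The authors deposited raw read counts per gene without normalization, in a table that also lists 1153 transposable element families, which were not used here. The program that counted the latter and the strand setting are not given in the sources used here, so overlapping genes on both strands cannot be told apart. The authors also deposited, per library, the RSEM expected counts, TPM and FPKM values per gene. TPM compares levels between genes, and the FPKM and the expected counts entered alternatives only, the latter rounded.

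Counts were tested in R 4.3.3 with edgeR 4.0.16 by its quasi-likelihood test in the legacy form, with filterByExpr, TMM factors (0.959 to 1.043) and Benjamini-Hochberg adjustment over 18661 genes. The calling rule was more than 2-fold and adjusted p under 0.05. A standard error is the log2 fold change divided by the square root of F. The alternatives used DESeq2 1.42.0, limma 3.58.1, other scalings, filters and left-out libraries. Positions are from GENCODE M21 on GRCm38, in which all 35 identifiers have the same version. Members and lists were chosen with earlier results of these data known. Values per library are given for the subunits and sensors, the called genes, those with an unadjusted p-value under 0.05 and those without overlap between groups. Of the other lists, genes with an unadjusted p-value under 0.01 are named, and Hif3a, Hsp90ab1, Arnt2, Crebbp, Ep300, Twist2, Edn1, Trf, Insig2 and Pim1 were named outside this rule.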

Additional observations from a re-analysis of the deposited data

How the results depend on the processing

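Of the 35 genes, 29 kept the direction of their log2 fold change in all 15 alternatives, including all 21 with an unadjusted p-value under 0.05. The exceptions had small values in the edgeR fit to all 4 libraries, from -0.27 for Gbe1 to 0.08 for Hif1an. The sign changed for Higd1a with library totals alone (0.023) and for Car9 in limma-trend on log2(FPKM + 1) (0.35) and on log2(FPKM + 0.1) (0.90). With 1 library left out, values crossed 0 for Higd1a (-0.73 to 0.39), Car9 (-0.66 to 0.78), Hif1an (-0.10 to 0.25), Plod1 (-0.12 to 0.25), Ero1l (-0.45 to 0.16) and Gbe1 (-0.68 to 0.041). The 4 called genes became 7 with DESeq2, 8 without the filter on low counts, 1 with the RSEM expected counts, 0 with either limma-trend fit, where 12 of the 35 had an unadjusted p-value under 0.05 in place of 21, and between 0 and 9 with 1 library left out. Over all genes, the 168 calls became 375 with DESeq2, 807 without the filter, 44 with the RSEM expected counts, 0 with either limma-trend fit and between 8 and 887 with 1 library left out. With library totals alone, 108 were higher and 40 lower in place of 103 and 65. The median of the 35 genes was -0.31 in limma-trend on log2(FPKM + 1) and between -0.50 and -0.38 with 1 library left out. Adding the replicate number as a replicate block gave 6 called genes, namely the 4 with Bnip3 and Epas1, and 1156 over all genes. With the block, 28 of the 35 had an unadjusted edgeR p-value under 0.05 in place of 21, with 5 higher and 23 lower. Hif1a was then among the higher ones, at a log2 fold change of 0.36 ± 0.059 (SE). Deviations from the group means of same-numbered libraries correlated at 0.561 across genes, but nothing in the labels says that a number marks a shared culture. The cause of these differences was not tested. Leaving out the mitochondrial genes, an alternative chosen after the data were seen, left 4 called genes. Whether more reads would change the results of the genes with few reads, such as Adm, Bhlhe41, Ankrd37 and Car9, was not tested. Of these, only Adm was called, and it had 11 and 14 reads in the lactate libraries.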
